A study of Mus musculus with 12 samples.

Results

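The genes described here are 34 stromal and endothelial genes, read in myeloid cells sorted from the cecum: 15 genes of the extracellular matrix, 3 surface genes of mesenchymal cells, 5 smooth muscle genes and 11 endothelial genes. A gene was represented by the array row that carries its symbol alone, and by the row with the highest mean over the 12 samples where it has several. By this rule 33 of the 34 genes were found, each with 1 row, among 35556 rows in all and 19938 genes with a row of their own. Fbn1, the gene of fibrillin-1, is named alone by no row and has no value here. The rule reads measured values only to pick a row, but the list of genes was chosen with earlier results of these data known. Counts of these genes set beside shares of all rows are therefore descriptive, since the list was not drawn blind to the data.

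The samples fall into 4 groups. Runx3Δ RM (4 samples) and WT RM (3 samples) are colonic resident macrophages (RM), sorted as F4/80+ cells from a CD45+ gate that was also CD11c+, MHCII+, CD11b+ and Ly6c-. Runx3Δ CD11b+ DC (3 samples) and WT CD11b+ DC (2 samples) are dendritic cells sorted from the same gate as F4/80- cells. Runx3Δ mice carry floxed alleles of Runx3, a transcription factor of the RUNX family, and a CD11c-Cre transgene, so that exon 3 is lost only where the CD11c promoter drives Cre. The labels give them as Runx3 -/- and their WT litter mates as Runx3 +/+. All mice were on the C57Bl/6 background and 6 to 8 weeks old, with no treatment named in the labels, and each sample pooled the sorted cells of 3 to 4 mice of both sexes. P values therefore measure the spread between such pools. The labels also mark each sample as litter mate 1 to 4, which was read here as the number of a litter that samples of different groups share. Whether equal numbers mean the same litter was not tested beyond a correlation check, and the comparisons within litters rest on this reading.

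Fibroblasts of the intestinal lamina propria secrete fibrillar collagens and small leucine-rich proteoglycans, smooth muscle cells and pericytes carry a contractile apparatus of actin, myosin and their binding proteins, and endothelial cells line vessels with junction proteins and receptors for angiogenic factors. The gates used here select CD45+ leukocytes, whereas fibroblasts, smooth muscle cells and endothelial cells lack CD45. Some of the genes are also made by leukocytes: Pecam1 and Eng by macrophages, Flt1 by monocytes and Thy1 by mouse T cells. A bulk array reads the RNA of the whole sorted sample, so fewer cells of a type and less RNA per cell cannot be told apart, and the cells that held the RNA of these genes were not identified.

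All values are log2 RMA intensities, and a level of one gene was not set against that of another. Taking a log2 level of 5 as the line below which a row is dim, 13 of the 14 measured matrix genes, all 3 mesenchymal surface genes, all 5 smooth muscle genes and 9 of the 11 endothelial genes reached it in at least 1 sample. Lum, the gene of lumican, Emcn, that of endomucin, and Esm1, that of endocan, stayed under it in every sample. Between 22 and 28 of the 33 genes reached it per sample. So did 19732 to 21019 of the 35556 rows, since the median level of all rows was 5.33 to 5.52 per sample. Reaching the line is therefore common on this array and does not set these genes apart. Over the group means, 13 of the 14 matrix genes were lowest in Runx3Δ CD11b+ DC (the exception was Col5a1, lowest in WT CD11b+ DC) and 10 of 14 were highest in WT RM. The endothelial genes had no such order, with 4 highest in Runx3Δ RM, 0 in WT RM, 2 in Runx3Δ CD11b+ DC and 5 in WT CD11b+ DC.

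**Figure D1:**
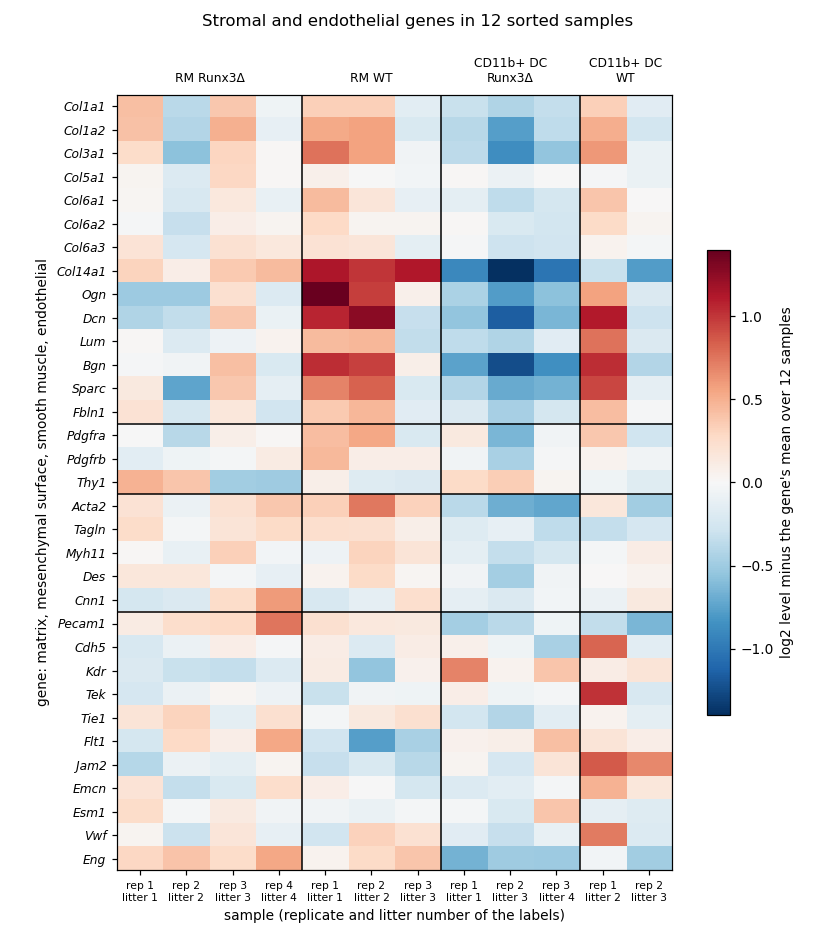
Each cell is the log2 level of 1 gene (rows, in the order matrix, mesenchymal surface, smooth muscle, endothelial) in 1 sample (columns) minus the mean of that gene over the 12 samples, red above and blue below. Of the 14 matrix genes, 14 and 13 are red in WT RM replicates 1 and 2 and 12 in WT CD11b+ DC replicate 1, while 12, 14 and 14 are blue in Runx3Δ CD11b+ DC replicates 1, 2 and 3.

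The sorted populations differed in markers of macrophages and dendritic cells. All 13 measured genes of a resident macrophage list and all 11 of a dendritic cell list reached a log2 level of 5 in every sample of both cell types. That count does not tell the cell types apart. Of the 13 macrophage genes, 12 were higher in RM than in CD11b+ DC in both genotypes (limma, adjusted p under 0.05). Of the 11 dendritic cell genes, 9 in Runx3Δ cells and 10 in WT cells were lower. Over all rows, 3.73% were higher and 4.12% lower in Runx3Δ cells, and 3.05% and 3.02% in WT cells. The dendritic cell list was not limited to genes of the CD11b+ subset. The correlation between samples of a group was 0.979 to 0.991, and no pair of samples held identical values. Runx3 itself had levels of 9.94 ± 0.16 (SD, n = 4) in Runx3Δ RM and 9.69 ± 0.19 (SD, n = 3) in WT RM, and of 10.04 ± 0.09 (SD, n = 3) in Runx3Δ CD11b+ DC and 10.05 ± 0.09 (SD, n = 2) in WT CD11b+ DC. Which exons the probes of that row cover was not checked, so it is not read as a measure of the loss of exon 3.

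The first comparison asks whether loss of Runx3 moved these genes in RM. In limma with Benjamini-Hochberg adjustment over all rows, 0 of the 33 genes passed an adjusted p of 0.05, in a comparison that called 0.0141% of all rows. Before adjustment 3 genes were under a p of 0.05, and a one-way contrast without moderation of the variances also passed 0. At the thresholds of the study, a fold of at least 1.5 with an unadjusted p of at most 0.05, Col14a1 and Ogn were lower and Flt1 was higher in Runx3Δ RM, where 0.731% of all rows were lower and 0.728% higher. None of these 3 differences passed the adjusted threshold. The matrix genes lay mostly below 0, with a median log2 difference of -0.25 and 13 of 14 genes below 0, and the endothelial genes did not (median 0.05, 3 of 11 below 0). The median over all rows was 0.03, with 43.6% of rows below 0.

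Col14a1, whose product is a collagen that binds to the surface of fibrils, had log2 levels of 6.99, 6.77, 7.04 and 7.12 in the Runx3Δ RM samples, against 7.81, 7.68 and 7.80 in the WT RM samples. Every Runx3Δ sample lay below every WT sample. The log2 difference was -0.78 ± 0.15 (SE), a 1.72-fold lower level, with an adjusted p of 0.181 in limma. It was the only member whose Runx3Δ RM samples all lay below the WT RM samples, and Flt1 was the only member with the reverse order. Over all rows, 3.43% were separated in the first way and 4.12% in the second. When the p values were adjusted over 1 row per gene in place of all rows, Col14a1 passed with an adjusted p of 0.0498, and it passed under none of the 23 other alternatives.

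Ogn, the gene of osteoglycin, a small leucine-rich proteoglycan, had log2 levels of 4.23, 4.23, 4.97 and 4.56 in Runx3Δ RM, against 6.12, 5.71 and 4.81 in WT RM. The third WT sample lay among the Runx3Δ samples, so the groups overlapped, and all 4 Runx3Δ samples were under the dim line of 5. The log2 difference was -1.05 ± 0.30 (SE, limma adjusted p = 0.388). Dcn and Bgn, the genes of the related proteoglycans decorin and biglycan, were likewise lowest in WT replicate 3 among the WT samples. Dcn was at 7.53, 7.61, 8.33 and 7.86 in Runx3Δ RM, against 9.02, 9.21 and 7.63 in WT RM (log2 difference -0.79 ± 0.41, SE, limma adjusted p = 0.677). Bgn was at 8.13, 8.09, 8.56 and 7.93 in Runx3Δ RM, against 9.18, 9.09 and 8.22 in WT RM (log2 difference -0.65 ± 0.33, SE, limma adjusted p = 0.670). For both genes, WT replicates 1 and 2 were above all Runx3Δ samples and WT replicate 3 was among them.

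**Figure D2:**
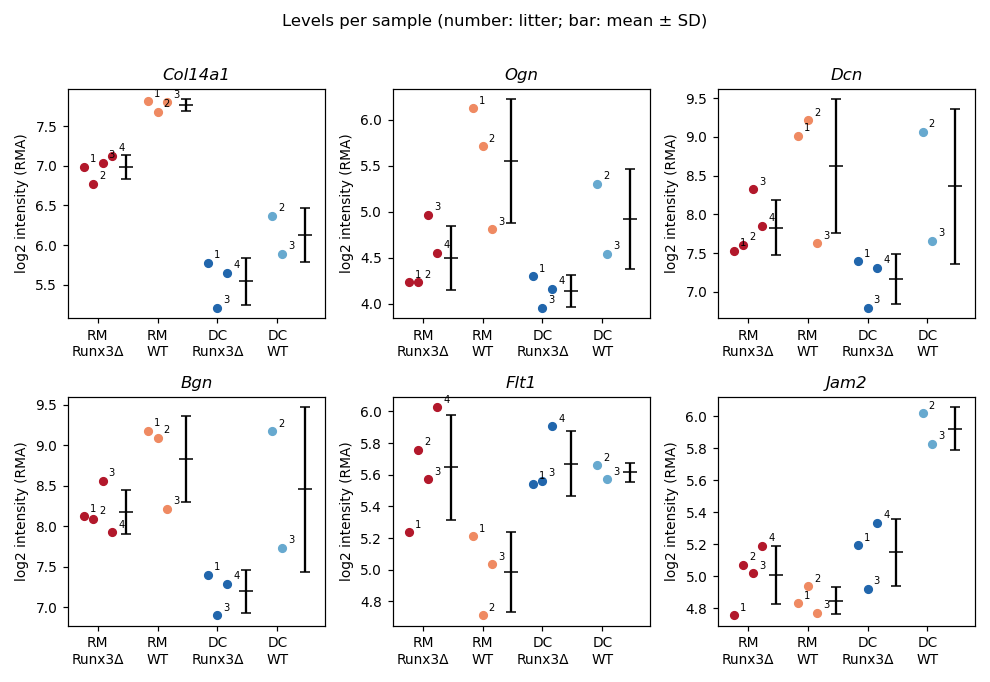
Points are the log2 RMA intensity of 1 gene per panel in each of the 12 samples, with the litter number beside the point, and black bars give the group mean ± SD. Col14a1 separates Runx3Δ RM from WT RM and both RM groups from both CD11b+ DC groups; Ogn, Dcn and Bgn are spread widely within the WT groups; Flt1 is lowest in WT RM and Jam2 is highest in WT CD11b+ DC.

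Flt1, the gene of a receptor for VEGF, had log2 levels of 5.24, 5.76, 5.57 and 6.03 in Runx3Δ RM, against 5.21, 4.71 and 5.03 in WT RM. The groups did not overlap, but the lowest Runx3Δ sample and the highest WT sample, both of litter 1, were nearly level. The log2 difference was 0.66 ± 0.18 (SE, limma adjusted p = 0.354). The other endothelial genes had log2 differences between -0.14 (Vwf, the gene of von Willebrand factor) and 0.18 (Pecam1, that of the junction protein CD31), with adjusted p values of 0.795 or more.

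The remaining matrix genes in RM had log2 differences from -0.52 (Sparc, which encodes a collagen-binding matrix protein) to 0.03 (Col5a1, a chain of type V collagen). The chains of the major fibrillar collagens, Col1a1, Col1a2 and Col3a1, were at -0.08, -0.20 and -0.42, and the type VI chains Col6a1, Col6a2 and Col6a3 were at -0.21, -0.17 and -0.00. Fbln1, the gene of fibulin-1, was at -0.27 and Lum at -0.24. Of the surface genes, the growth factor receptors Pdgfra and Pdgfrb were at -0.33 and -0.24 and Thy1 at 0.08. The smooth muscle genes lay between -0.29 (Acta2, smooth muscle actin) and 0.14 (Cnn1, calponin). None of them had an adjusted p under 0.70 in limma.

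The levels of the matrix genes varied together from sample to sample, also within a group. The mean deviation of the 14 genes from their own means over the 12 samples was 0.08, -0.31, 0.27 and -0.03 in Runx3Δ RM, and 0.62, 0.56 and -0.03 in WT RM. WT RM replicates 1 and 2 were thus above all Runx3Δ RM samples, and replicate 3, of litter 3, was among them. In Runx3Δ CD11b+ DC the same mean was -0.34, -0.66 and -0.44, and in WT CD11b+ DC it was 0.48 and -0.19. In both cell types the WT sample of litter 3 was the lowest WT sample: WT RM replicate 3 had the lowest level of its group for 12 of the 14 genes, and WT CD11b+ DC replicate 2 for 14 of 14. Among the Runx3Δ RM samples, replicate 3 was highest for 10 of 14 genes and replicate 2 lowest for 10 of 14. Among the Runx3Δ CD11b+ DC samples, replicate 1 was highest for 12 and replicate 2 lowest for 13.

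The litter numbers allow a comparison within litters. Within litter 1, the 14 matrix genes were on average 0.55 log2 units lower in the Runx3Δ RM sample than in the WT RM sample of that litter (13 of 14 lower), and within litter 2 they were 0.86 lower (14 of 14). Within litter 3 the order was reversed, with a mean difference of 0.30 and 13 of 14 genes higher in Runx3Δ RM. Only litter 3 holds both genotypes of CD11b+ DC, and there the matrix genes had a mean difference of -0.47, with 13 of 14 lower in Runx3Δ cells. Without WT RM replicate 3 the matrix median in RM was -0.48, and 7 members were past the thresholds of the study in place of 3; without WT RM replicate 1 the median was -0.15.

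**Figure D3:**
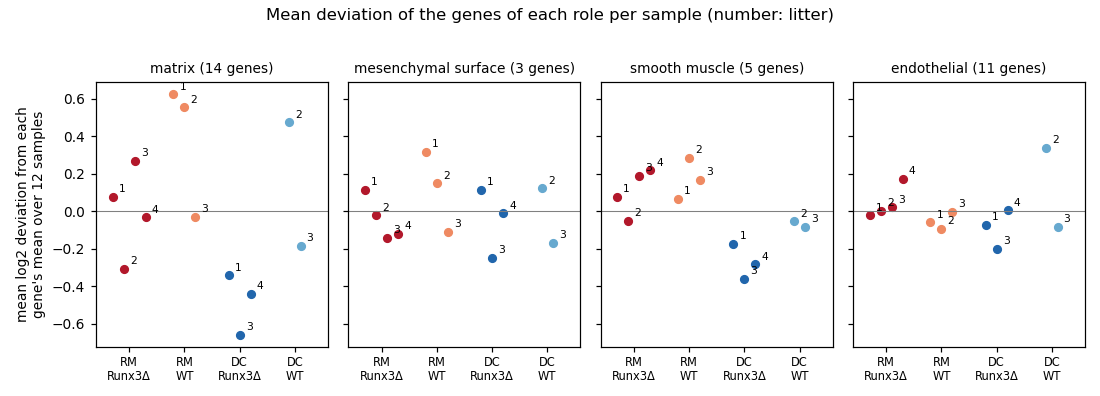
Points are the mean log2 deviation of the genes of a role from each gene's own mean over the 12 samples, 1 point per sample, with the litter number beside it. Among the matrix genes the WT samples of litter 3 lie at -0.03 in RM and -0.19 in CD11b+ DC, under the other WT samples at 0.48 to 0.62; the smooth muscle genes lie between -0.05 and 0.28 in the RM samples and between -0.36 and -0.05 in the CD11b+ DC samples.

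Runx3 is a DNA-binding factor, and the proximal promoters of the matrix genes with the greatest log2 difference between genotypes, Ogn in RM and Bgn in CD11b+ DC, are printed to show the letters that a search for the RUNX core read. The core TGTGGT was searched on both strands (ACCACA on the reverse), in windows from 250 bases before to 50 bases after the start of RefSeq genes (GRCm38.p6), with no other motif searched. It was present in 16.8% of 32851 such windows, which is 18.9% of the genes with a window. Of 22 member genes with a window, 2 held it: Ogn, with its first base at position -65 from the start, and Sparc, at position 35. A match is a run of letters and not a measured site. The 250 bases before the start are given 5′ to 3′ on the gene's strand, in lower case with the core in capitals, for Ogn (chr13:49607765-49608014, + strand) and for Bgn (chrX:73483351-73483600, + strand), which held none.
Ogn promoter: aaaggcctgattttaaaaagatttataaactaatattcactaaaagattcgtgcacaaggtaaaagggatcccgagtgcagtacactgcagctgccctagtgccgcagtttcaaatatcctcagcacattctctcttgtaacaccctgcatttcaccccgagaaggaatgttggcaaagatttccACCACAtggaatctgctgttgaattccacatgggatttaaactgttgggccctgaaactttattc
Bgn promoter: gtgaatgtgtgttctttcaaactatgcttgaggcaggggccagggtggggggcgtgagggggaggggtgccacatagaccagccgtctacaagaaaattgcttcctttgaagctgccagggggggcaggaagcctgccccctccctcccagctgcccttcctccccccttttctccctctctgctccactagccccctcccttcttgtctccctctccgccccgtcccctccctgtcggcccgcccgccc

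The second comparison asks the same of CD11b+ DC. Again 0 of the 33 genes passed an adjusted p of 0.05 in limma, as did 0% of all rows. Before adjustment 9 members were under a p of 0.05, all of them lower in Runx3Δ cells, and the contrast without moderation also passed 0. At the thresholds of the study 5 members were lower (Col3a1, Dcn, Bgn, Sparc and Jam2) and 0 higher, where 1.5% of all rows were lower and 0.633% higher. The matrix genes had a median log2 difference of -0.59, with 13 of 14 below 0, and the endothelial genes of -0.30, with 7 of 11 below 0. The median over all rows was 0.01, with 47.8% of rows below 0. The levels of all Runx3Δ samples lay below both WT samples for 17 of the 33 genes, 11 of them matrix genes, and above both for 1, Thy1. Over all rows, 12.6% were separated downward and 13.1% upward. The size of these differences depended on which WT sample was kept, because WT CD11b+ DC replicate 1 was the higher of the pair for 14 of 14 matrix genes and 10 of 11 endothelial genes.

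Bgn had log2 levels of 7.40, 6.90 and 7.29 in Runx3Δ CD11b+ DC, against 9.18 and 7.73 in WT CD11b+ DC. Dcn was at 7.40, 6.80 and 7.31 in Runx3Δ cells, against 9.06 and 7.66 in WT cells. Sparc was at 8.02, 7.72 and 7.77 in Runx3Δ cells, against 9.37 and 8.31 in WT cells. For all 3 genes WT replicate 1 stood over 1 log2 unit above WT replicate 2, which itself was a little above the highest Runx3Δ sample. The log2 differences were -1.26 ± 0.39 for Bgn, -1.19 ± 0.49 for Dcn and -1.0 ± 0.39 for Sparc (SE, limma adjusted p = 0.536, 0.695 and 0.666).

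Col3a1, a fibrillar collagen of loose connective tissue, was at 7.12, 6.62 and 6.94 in Runx3Δ CD11b+ DC, against 8.10 and 7.40 in WT cells (log2 difference -0.85 ± 0.31, SE, limma adjusted p = 0.634). Col6a1, a chain of type VI collagen, was at 6.54, 6.32 and 6.43, against 7.06 and 6.68 in WT cells (-0.44 ± 0.18, SE, limma adjusted p = 0.682). Fbln1 was at 5.91, 5.64 and 5.86, against 6.54 and 6.09 in WT cells (-0.51 ± 0.22, SE, limma adjusted p = 0.729). In each of the 3 the groups did not overlap, and the gap between the WT samples was as wide as or wider than that between the lower WT sample and the highest Runx3Δ sample. Col14a1 was at 5.78, 5.21 and 5.66 in Runx3Δ CD11b+ DC, against 6.37 and 5.89 in WT cells, with a log2 difference of -0.58 ± 0.18 (SE, limma adjusted p = 0.542) and no overlap. The remaining matrix genes ranged from -0.78 (Ogn) to 0.03 (Col5a1).

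Jam2, which encodes a junctional adhesion molecule of endothelium, had log2 levels of 5.19, 4.92 and 5.34 in Runx3Δ CD11b+ DC, against 6.02 and 5.83 in WT CD11b+ DC. Both WT samples were nearly level and clearly above the 3 Runx3Δ samples, with no overlap. The log2 difference was -0.77 ± 0.15 (SE), with an adjusted p of 0.265 in limma. Over the alternatives, which include leaving out either WT sample, the difference ranged from -0.87 to -0.66 and the adjusted p from 0.0868 to 1.00. Emcn was at 3.87, 3.91 and 4.03 in Runx3Δ cells, against 4.54 and 4.21 in WT cells (-0.44 ± 0.19, SE, limma adjusted p = 0.721), all of them dim. The other endothelial genes ranged from -0.48 (Cdh5, VE-cadherin) to 0.23 (Kdr, a VEGF receptor). Tek, the gene of the angiopoietin receptor Tie2, was at 4.18, 4.03 and 4.06 in Runx3Δ cells, against 5.11 and 3.86 in WT cells, so 1 WT sample was the highest of all 12 samples and the other was below every Runx3Δ sample.

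Without WT CD11b+ DC replicate 1 the matrix median in CD11b+ DC was -0.27, the endothelial median 0.00 and 1 member was past the thresholds of the study. Without WT CD11b+ DC replicate 2 the medians were -0.92 and -0.52 and 17 members were past them. Without Runx3Δ CD11b+ DC replicate 2, which was the lowest of its group for 13 of 14 matrix genes, 2 members were past them and the matrix median was -0.46. No member passed the adjusted threshold in any of these fits.

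**Figure D4:**
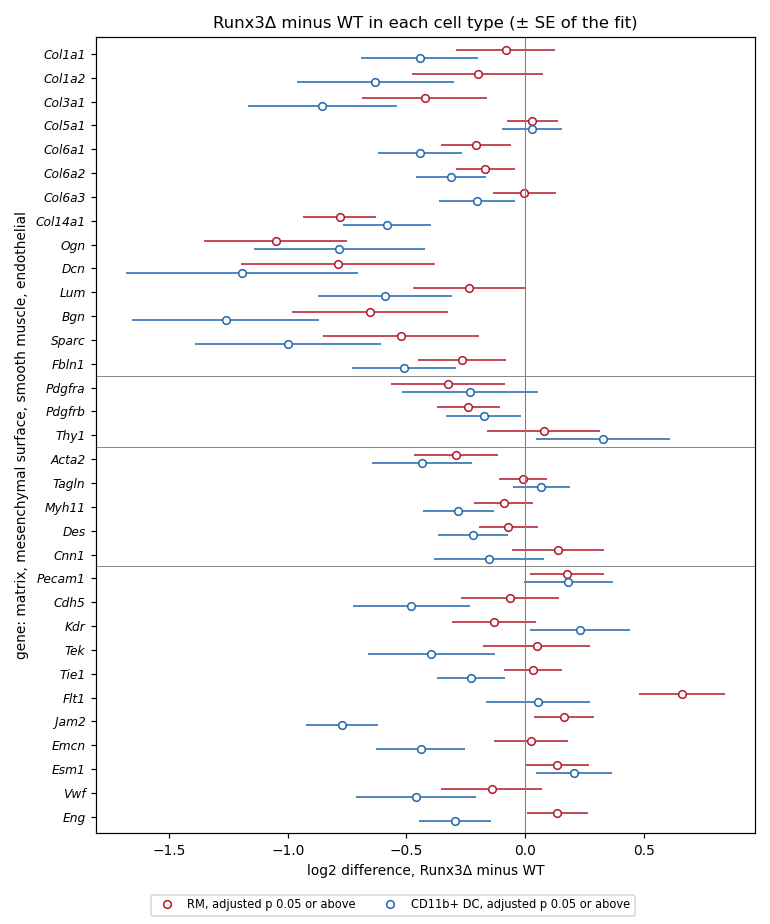
Points are the log2 difference Runx3Δ minus WT of each of the 33 genes in RM (red) and CD11b+ DC (blue), and bars the standard error of the fit. All points are open, since none had an adjusted p under 0.05; the greatest differences are -1.05 for Ogn in RM and -1.26 for Bgn in CD11b+ DC.

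Whether the genotype difference itself differed between RM and CD11b+ DC was tested as an interaction. No member passed (0 of 33; limma, adjusted p under 0.05), nor did any row (0%), and 1 member, Jam2, was under an unadjusted p of 0.05. The Jam2 genotype difference was 0.94 ± 0.20 log2 units (SE) higher in RM than in CD11b+ DC, with an adjusted p of 1.00 in limma. In RM, Jam2 was at 4.76, 5.07, 5.02 and 5.19 in Runx3Δ samples, against 4.83, 4.94 and 4.77 in WT samples, and these groups overlapped. The matrix genes had a median interaction of 0.30, which was -0.01 without WT CD11b+ DC replicate 1.

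The third comparison sets RM against CD11b+ DC within Runx3Δ mice. In limma 5 of the 33 genes were higher in RM and 0 lower at an adjusted p of 0.05, where 3.73% of all rows were higher and 4.12% lower: Col14a1, Eng, Acta2, Pecam1 and Tagln. With the litter number as a block the count was 3, since Acta2 (0.73, adjusted p = 0.0586) and Tagln (0.41, adjusted p = 0.0614) no longer passed. At the thresholds of the study 6 members were higher, with Col3a1 and Bgn in place of Tagln, and Kdr was lower (4.02% of all rows higher, 3.53% lower). All 14 matrix genes had a log2 difference above 0, with a median of 0.40, and all 5 smooth muscle genes, with a median of 0.29. The median over all rows was 0.02, with 54.8% of rows above 0.

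Col14a1 was higher in RM than in CD11b+ DC in both genotypes. Its levels of 6.77 to 7.12 in Runx3Δ RM lay above those of 5.21 to 5.78 in Runx3Δ CD11b+ DC, a log2 difference of 1.43 ± 0.15 (SE) or 2.70-fold (limma adjusted p = 2.2e-04). Its levels of 7.68 to 7.81 in WT RM lay above those of 5.89 and 6.37 in WT CD11b+ DC, a log2 difference of 1.63 ± 0.18 (SE) or 3.10-fold (limma, adjusted p = 3.8e-04). The groups were apart in both genotypes, and both calls held under all 24 alternatives.

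Eng, which encodes endoglin, a co-receptor of the TGF-β family, had log2 levels of 8.99, 9.10, 8.95 and 9.23 in Runx3Δ RM, against 8.03, 8.20 and 8.19 in Runx3Δ CD11b+ DC. The groups were well apart, and the log2 difference of 0.93 ± 0.13 (SE, limma adjusted p = 0.00101) passed under all 24 alternatives. In WT cells Eng was at 8.75, 8.96 and 9.09 in RM, against 8.66 and 8.21 in CD11b+ DC. Here the groups nearly met, and the log2 difference was 0.50 ± 0.15 (SE, limma adjusted p = 0.0918).

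Pecam1 had log2 levels of 9.01, 9.13, 9.17 and 9.64 in Runx3Δ RM, against 8.41, 8.51 and 8.83 in Runx3Δ CD11b+ DC. In WT cells it was at 9.12, 9.04 and 9.03 in RM, against 8.55 and 8.26 in CD11b+ DC. RM were above CD11b+ DC in every sample of both genotypes, by nearly the same amount. The log2 differences were 0.65 ± 0.16 (SE, limma adjusted p = 0.0259) in Runx3Δ cells and 0.66 ± 0.19 (SE, limma adjusted p = 0.0688) in WT cells. With the litter as a block the WT difference passed as well (0.67, adjusted p = 0.0176). The call in Runx3Δ cells passed under 18 of 24 alternatives. It was lost without Runx3Δ RM replicate 3 (adjusted p = 0.0508), without Runx3Δ CD11b+ DC replicate 1 or 2 (0.105 and 0.110), with only the samples of the groups compared (0.0611), with median centring (0.0648) and in the contrast without moderation (0.0614).

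Acta2, the actin of smooth muscle and of myofibroblasts, had log2 levels of 7.80, 7.52, 7.82 and 7.98 in Runx3Δ RM, against 7.23, 6.93 and 6.88 in Runx3Δ CD11b+ DC. In WT cells it was at 7.94, 8.35 and 7.93 in RM, against 7.77 and 7.12 in CD11b+ DC. No CD11b+ DC sample reached the lowest RM sample of its genotype. The log2 differences were 0.77 ± 0.18 (SE, limma adjusted p = 0.0212) in Runx3Δ cells and 0.63 ± 0.21 (SE, limma adjusted p = 0.128) in WT cells. The call in Runx3Δ cells passed under 18 of 24 alternatives. Without Runx3Δ RM replicate 3 or 4, or Runx3Δ CD11b+ DC replicate 2 or 3, it was lost, with adjusted p values of 0.0540, 0.0612, 0.0938 and 0.0876, as it was with the litter block and in the contrast without moderation (0.0583).

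Tagln, the gene of the actin-binding protein transgelin, had log2 levels of 6.15, 5.86, 6.07 and 6.16 in Runx3Δ RM, against 5.71, 5.77 and 5.53 in Runx3Δ CD11b+ DC. In WT cells it was at 6.12, 6.12 and 5.97 in RM, against 5.55 and 5.65 in CD11b+ DC. RM samples were above CD11b+ DC samples throughout, with a narrow gap. The log2 differences were 0.39 ± 0.10 (SE, limma adjusted p = 0.0359) in Runx3Δ cells and 0.47 ± 0.12 (SE, limma adjusted p = 0.0422) in WT cells. Tagln passed under 11 of 24 alternatives in Runx3Δ cells and 10 of 24 in WT cells, and leaving out any 1 of several samples ended the call: in Runx3Δ cells Runx3Δ RM replicates 1, 3 and 4, all 3 Runx3Δ and both WT CD11b+ DC samples, and in WT cells all 3 WT RM samples, Runx3Δ RM replicates 3 and 4, both WT CD11b+ DC samples and Runx3Δ CD11b+ DC replicates 1 and 2.

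In Runx3Δ cells some members missed the adjusted threshold but had an unadjusted p under 0.05 in limma. Of these, Kdr was at 4.98, 4.88, 4.86 and 5.0 in Runx3Δ RM, against 5.89, 5.24 and 5.58 in Runx3Δ CD11b+ DC. It was the only member with a lower level in all Runx3Δ RM than in all Runx3Δ CD11b+ DC samples, with a log2 difference of -0.64 ± 0.18 (SE, limma adjusted p = 0.0518), and it passed under 11 of 24 alternatives. Tie1, which encodes the partner receptor of Tie2, was at 5.33, 5.45, 5.01 and 5.37 in Runx3Δ RM, against 4.89, 4.74 and 4.99 in Runx3Δ CD11b+ DC (0.42 ± 0.12, SE, limma adjusted p = 0.0635). Bgn differed by 0.98 ± 0.33 (SE, limma adjusted p = 0.109), Col3a1 by 0.60 ± 0.26 (adjusted p = 0.249), and Myh11, the heavy chain of smooth muscle myosin, by 0.29 ± 0.13 (adjusted p = 0.234). Des and Cnn1, the other contractile genes, differed by 0.24 and 0.22 and overlapped between the groups.

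In WT mice the same comparison called 2 members higher in RM, Col14a1 and Tagln, and 1 lower, Jam2, where 3.05% of all rows were higher and 3.02% lower. With the litter as a block the count was again 3, with Pecam1 in place of Tagln (0.43, adjusted p = 0.106). At the thresholds of the study Col14a1, Acta2 and Pecam1 were higher and Flt1 and Jam2 lower (4.11% and 4.41% of all rows). The matrix genes had a median of 0.08, with 11 of 14 above 0, and the endothelial genes of -0.27, with 7 of 11 below 0. Without WT CD11b+ DC replicate 1 the matrix median was 0.45 and the endothelial median 0.13. Without WT CD11b+ DC replicate 2 they were -0.20 and -0.54, so the sign of both medians depended on which of these samples was kept.

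Jam2 was at 4.83, 4.94 and 4.77 in WT RM, against 6.02 and 5.83 in WT CD11b+ DC. The gap between the groups was several times the spread within either. The log2 difference was -1.08 ± 0.15 (SE) or 2.11-fold lower (limma, adjusted p = 0.00155), and it passed under all 24 alternatives. All 3 WT RM values were under the dim line of 5, so the size of this difference is set against a dim level. In Runx3Δ cells it was -0.14 ± 0.13 (SE, limma adjusted p = 0.641), with overlapping groups. Flt1 was at 5.21, 4.71 and 5.03 in WT RM, against 5.66 and 5.57 in WT CD11b+ DC, with no overlap and a log2 difference of -0.63 ± 0.22 (SE, limma adjusted p = 0.142). In Runx3Δ cells it was -0.02 ± 0.18 (adjusted p = 0.974). The comparisons share the samples of the 4 groups, so these values are not independent of those between genotypes.

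**Figure D5:**
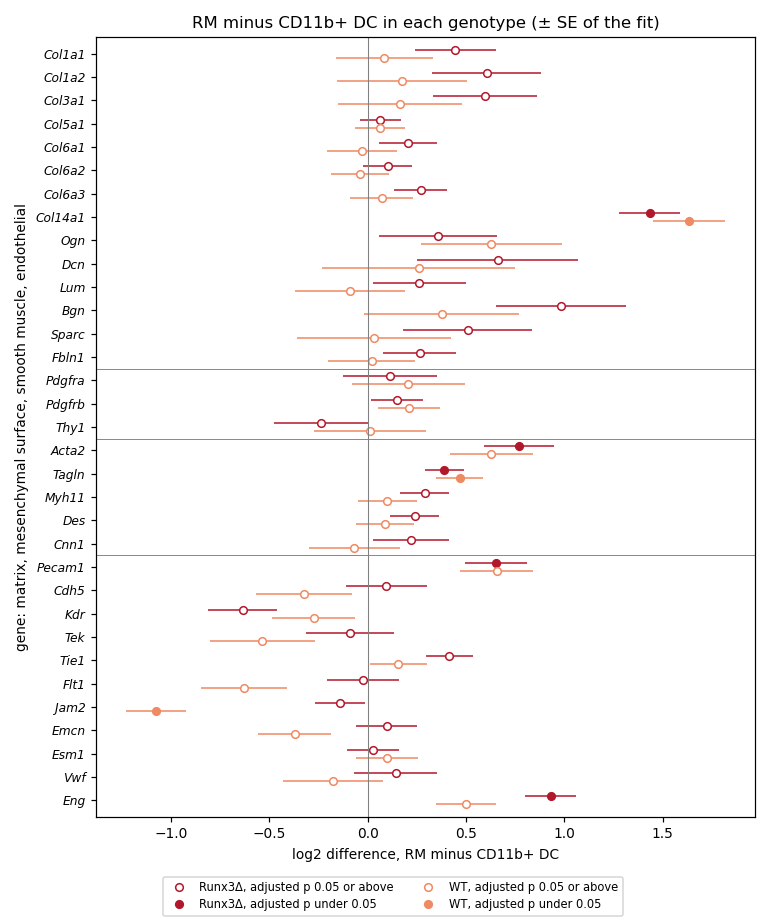
Points are the log2 difference RM minus CD11b+ DC of each of the 33 genes in Runx3Δ mice (dark red) and WT mice (orange), with bars for the standard error; filled points have an adjusted p under 0.05. Filled points are Col14a1, Acta2, Tagln, Pecam1 and Eng in Runx3Δ cells and Col14a1, Tagln and Jam2 in WT cells.

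Within litters, the matrix genes were higher in Runx3Δ RM than in Runx3Δ CD11b+ DC by a mean of 0.42, 0.93 and 0.41 log2 units in litters 1, 3 and 4, with 12, 14 and 13 of the 14 genes higher. In WT litters 2 and 3 the mean was 0.08 and 0.16, with 7 of 14 genes higher in each. The smooth muscle genes differed by a mean of 0.25, 0.55 and 0.50 in the Runx3Δ litters and by 0.34 and 0.25 in the WT litters. Of the mesenchymal surface genes, Pdgfra and Pdgfrb differed between RM and CD11b+ DC by 0.11 and 0.15 in Runx3Δ cells and by 0.21 in WT cells for both, and Thy1 by -0.24 and 0.01.

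Other genes of the same tissues were read from longer lists. Of 45 further matrix and fibroblast genes, 36 had a log2 difference below 0 between Runx3Δ and WT RM (median -0.18), where 43.6% of all rows did. Within litters 1 and 2, 32 and 39 of the 45 were lower in Runx3Δ RM, and within litter 3, 30 were higher. Only 1 passed, where 0.0141% of all rows did. It was Fap, the gene of fibroblast activation protein, at 4.73, 4.57, 4.67 and 4.90 in Runx3Δ RM, against 5.64, 5.76 and 5.85 in WT RM. All 4 Runx3Δ RM values were under the dim line of 5 and all 3 WT RM values above it. The groups did not overlap, and Fap fell by 1.03 on the log2 scale (SE 0.10; limma, adjusted p = 0.0079). Fap was also higher in WT RM than in WT CD11b+ DC, where it was at 4.63 and 4.71, again under that line (1.08 ± 0.12, SE, limma adjusted p = 3.5e-04). Postn, the gene of periostin, was also lowest in WT replicate 3 among the WT RM samples, with 7.19, 6.51, 7.44 and 7.22 in Runx3Δ RM, against 8.56, 8.95 and 7.24 in WT RM. Its log2 difference was -1.16 ± 0.44 (SE, limma adjusted p = 0.540). Between Runx3Δ and WT CD11b+ DC, 35 of the 45 genes lay below 0 (median -0.21), where 47.8% of all rows did. Of the 45, 0 passed, and Vcan, the gene of versican, was at -1.33 ± 0.34 (SE, limma adjusted p = 0.415). The log2 differences ranged from -1.54 (Postn) to 1.29 (Cxcl13). At the thresholds of the study 7 of the 45 were lower and 1 higher, where 1.5% of all rows were lower and 0.633% higher. Between RM and CD11b+ DC, Col15a1, a basement membrane collagen, was higher in Runx3Δ RM (0.62 ± 0.12, SE, limma adjusted p = 0.00888). In WT cells Col15a1 was at 6.78, 6.94 and 6.93 in RM, against 6.49 and 6.25 in CD11b+ DC. Cxcl13, the gene of a chemokine that draws B cells, was higher in WT RM (2.34 ± 0.53, SE, limma adjusted p = 0.0246), with 8.51, 8.48 and 7.11 in RM, against 5.74 and 5.65 in CD11b+ DC. In Runx3Δ cells the groups overlapped, with RM replicate 3 at 6.41 and CD11b+ DC replicate 2 at 6.96. Both WT CD11b+ DC levels of Cxcl13 were also below every Runx3Δ CD11b+ DC level, the lowest of which was 6.42.

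Of 29 measured further endothelial genes, 4 were higher and 2 lower in Runx3Δ RM than in Runx3Δ CD11b+ DC, and 2 were higher and 1 lower in WT RM than in WT CD11b+ DC (limma, adjusted p under 0.05). Over all rows the shares were 3.73% higher and 4.12% lower in Runx3Δ cells, and 3.05% and 3.02% in WT cells. Cd93, a C-type lectin receptor that myeloid cells carry too, was at 10.50 to 10.86 in Runx3Δ RM and 7.85 to 8.17 in Runx3Δ CD11b+ DC, a log2 difference of 2.55 ± 0.14 (SE, adjusted p = 5.2e-06), and Nrp1, a co-receptor of VEGF and semaphorins, differed by 0.79 ± 0.15 (SE, adjusted p = 0.00801). In WT cells these differences were 2.20 ± 0.17 for Cd93 (adjusted p = 4.9e-05) and 1.10 ± 0.18 for Nrp1 (adjusted p = 0.00382). Cd34, a sialomucin of endothelium and progenitors, was lower in RM, with log2 differences of -0.89 ± 0.19 in Runx3Δ cells (adjusted p = 0.0144) and -1.21 ± 0.23 in WT cells (adjusted p = 0.0084). Esam, an adhesion molecule of endothelial junctions, was lower in Runx3Δ RM (-0.84 ± 0.13, SE, limma adjusted p = 0.00185). In WT cells Esam was at 4.91, 5.03 and 5.25 in RM, against 5.39 and 5.37 in CD11b+ DC. Between genotypes 0 of the 29 passed in either cell type. Of 19 further smooth muscle and pericyte genes, 1 was higher and 1 lower in Runx3Δ RM than in Runx3Δ CD11b+ DC. The shares over all rows are those given for the endothelial genes. The lower was Tpm2, a tropomyosin (-0.99 ± 0.16, SE, limma adjusted p = 0.00287). In WT cells Tpm2 was at -0.65 ± 0.19 (SE, limma adjusted p = 0.082), with no overlap.

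Markers of other cells, both leukocytes and cells that a CD45+ gate does not select, were read in the same samples. The mean level of 9 measured B and plasma cell genes was 8.41 to 9.06 in Runx3Δ RM and 8.09 to 9.38 in WT RM, and 7.63 to 8.36 in Runx3Δ CD11b+ DC and 7.49 to 8.19 in WT CD11b+ DC. All 9 were above 0 between RM and CD11b+ DC in both genotypes. Over all rows, 54.8% were above 0 in Runx3Δ cells and 49.6% in WT cells. Between genotypes the share of all rows above 0 was 52.2% in CD11b+ DC and 56.4% in RM. The mean of 14 epithelial genes was 5.29 to 5.95 in Runx3Δ RM and 5.40 to 5.86 in WT RM, and 5.49 to 5.87 in Runx3Δ CD11b+ DC and 5.31 to 5.56 in WT CD11b+ DC, with 12 of 14 above 0 between the genotypes of CD11b+ DC (median 0.27). The mean of 11 T and NK cell genes was 6.65 to 7.13 in Runx3Δ RM and 6.33 to 6.79 in WT RM, and 6.55 to 6.61 in Runx3Δ CD11b+ DC and 6.45 to 6.47 in WT CD11b+ DC. The mean of 12 mast cell and granulocyte genes was 4.87 to 5.35 in Runx3Δ RM and 4.64 to 4.82 in WT RM, which did not overlap, and 5.36 to 5.54 in Runx3Δ CD11b+ DC and 5.13 to 5.43 in WT CD11b+ DC. Between the genotypes of RM 10 of the 12 were above 0 (median 0.18), 4 did not overlap and were higher in Runx3Δ RM, where 4.12% of all rows were, and 0 passed an adjusted p of 0.05 in limma, with 1, Mcpt1, past the thresholds of the study. The members of a list did not all go one way between WT RM and WT CD11b+ DC. Cd4 was at 11.56 and 8.93 and Il7r at 9.90 and 10.67, with 4 T and NK cell genes above 0 and 7 below. Cdh1 was at 5.76 and 8.98, with 11 epithelial genes above 0 and 3 below. Kit was at 7.59 and 10.55, with 3 mast cell and granulocyte genes above 0 and 9 below. Which cells held this RNA was not tested. Genes of mesothelium (7) and of enteric glia and neurons (8) had means of 4.33 to 4.52 and 4.51 to 4.78 over all samples, and at most 3 of each reached a log2 level of 5 in a sample. The part of any of these cells in the differences of the stromal and endothelial genes was not tested.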

How the data were processed

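RNA of sorted cecal RM and CD11b+ DC was measured on 12 arrays, in 4 groups taken from the labels. The values deposited by the authors are log2 intensities, made in Partek by RMA with a GC correction and used as deposited; the submitters' notes name mm9. The methods name an exon array whereas the platform is registered as a gene-level one, whose annotation named the rows. Of 35556 rows, 21789 carry 1 gene symbol, 1621 several and 12146 none. The members and gene lists were chosen with earlier results of these data known.

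A limma 3.58.1 model (lmFit, eBayes; R 4.3.3) took all 4 groups at once, statmod 1.5.0 serving the random block, and Benjamini-Hochberg adjustment ran across every row with a threshold of 0.05. Calls at the thresholds of the study (fold of at least 1.5 and unadjusted p of at most 0.05) are given too. All 34 members are named; a member has its value in every sample where its unadjusted p was at most 0.05, and from each further list up to 4 genes per comparison at the thresholds of the study were eligible. The fit was tested on simulated data. Plots were made in Python 3.11.15 (matplotlib 3.10.9).

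The litter mate numbers of the labels were read as litters that pair samples across groups. Deviations from the group means of all rows had a median correlation of 0.10 over 13 pairs with the same number (-0.04 to 0.36) and -0.03 over 40 other pairs (-0.26 to 0.20). Such deviations sum to 0 within a group, so the pairs are not independent. Over the members alone, pairs with the same number ranged from -0.61 (WT and Runx3Δ RM of litter 3) to 0.62 (WT RM and WT CD11b+ DC of litter 2). With the number as a random block the consensus correlation was 0.048. The litter as a block, other normalizations, filters and tests, and leaving out each sample were tried as alternatives. Precision is limited by the number of arrays. Authors' fold changes or p values were not used.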

Additional observations from a re-analysis of the deposited data

Results flagged for a closer look

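Col6a3, which encodes a chain of type VI collagen, had a log2 level of 5.52 in Runx3Δ RM replicate 2, while the other 3 Runx3Δ RM samples lay between 5.90 and 5.98. The gap between this sample and its nearest neighbour was 0.836 of the range of the group, just over the critical ratio of Dixon's test for 4 samples, a gap that chance gives in about 1 in 20 groups. The same check was made in Runx3Δ RM for all 33 members and for the mean of each role, and it flagged only this gene. With that many checks, 1 such gap is no more than chance would give. The same sample had the lowest level of its group for 10 of the 14 matrix genes.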

How the results depend on the processing

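The genotype comparisons passed 0 members in both cell types under all but 1 of the alternatives; with p values adjusted over 1 row per gene, 1 member passed in RM. The count of members past the adjusted threshold between Runx3Δ RM and Runx3Δ CD11b+ DC was 5, and it was 8 with 1 row per gene, 8 with the mean of the rows of a gene, 3 with the litter replicate block, 3 with median centring and 3 with the one-way contrast without moderation. In WT cells it was 3, and 5 with 1 row per gene, with the mean of the rows of a gene, or with rows without a gene symbol left out. The count between the genotypes of CD11b+ DC at the thresholds of the study was 5, and 3 with the one-way contrast. When each sample was left out in turn, the counts at the thresholds of the study ranged from 2 to 7 for the genotypes of RM, from 1 to 17 for those of CD11b+ DC, from 5 to 10 for RM against CD11b+ DC in Runx3Δ cells and from 3 to 7 in WT cells; those past the adjusted threshold ranged from 3 to 6 and from 2 to 3 in the last 2 comparisons, and stayed at 0 between genotypes and for the interaction. Of 718 single-gene differences under the alternatives, 0 reversed and 71 changed side of the adjusted threshold. Of 476 medians of a role, 16 moved by more than 1 SD between replicates, each when 1 sample was left out, 13 of them a CD11b+ DC WT sample. The replicate block ended the calls of Acta2 and of Tagln and added that of Pecam1 in WT cells; it changed no other call of a member. The cause of these shifts was not tested. WT CD11b+ DC had 2 samples, and where either was left out the other was assumed to vary like the other groups.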
